A study of Homo sapiens with 6 samples.

Results

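The genes described here are 40 genes of mitosis and the spindle: the kinases and cyclins that start mitosis, the spindle assembly checkpoint, the regulators of anaphase, the chromosomal passenger complex, the kinetochore, the spindle motors, the cytokinesis proteins and a pair of mitotic chromosome proteins. They were chosen by name, as the probes whose annotated symbol is one of the 40. All 40 had 1 probe each on the array, out of 17709 probes with a gene symbol and 21448 transcript probes in all. RMG1 cells, a line of ovarian clear cell carcinoma, were transfected with siCPNE8 #A, siCPNE8 #B or siControl, and OVCAR3 cells, a line of high-grade serous ovarian carcinoma, with siBHLHE41 #A, siBHLHE41 #B or siControl. Each of these 6 samples was hybridised to 1 Affymetrix Clariom S array, which gives 1 expression value a gene. CPNE8 encodes a calcium-dependent phospholipid-binding protein, and BHLHE41 a transcriptional repressor of the basic helix-loop-helix family. The study measured growth after either knockdown in RMG1, OVCAR3 and SKOV3 cells. Its arrays compared each knockdown with siControl only in the line the study had matched to that gene. Each carcinoma type is represented by 1 line.

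Mitotic genes are transcribed in waves. In G1, complexes that hold pocket proteins and the MuvB core keep them silent, and in late S and G2 phase MuvB joins B-MYB (MYBL2) and FOXM1 and switches them on. Some of the products are then marked for destruction by the anaphase-promoting complex as cells leave mitosis. In a culture that is not synchronised, the level of a mitotic transcript therefore depends both on how many cells are in G2 and mitosis and on how much RNA each of them holds, and these cannot be told apart in bulk RNA.

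All values are log2 values as deposited. Log2 ratios were formed within a line by subtracting its siControl array from each siRNA array. An SD given with a mean ratio is that of the 2 siRNAs, #A and #B, which differ in sequence, and each line has 1 siControl array. No source used here says that the arrays came from separate cultures, so the limma p-values measure only the spread between these samples. The highest value was 17.7 or more in every array, beyond what a 16-bit scanner can give on a log2 scale, so some rescaling took place that the sources used here do not describe, and the size of a log2 ratio may be affected by it. Background was set, array by array, at the level that 95% of its negative control probes did not exceed, between 7.86 and 8.47, and 37.2% to 41.2% of the transcript probes lay above it. All 40 members lay above it in the 3 OVCAR3 arrays, and 39 did so in the 3 RMG1 arrays; CDC25C passed it in 1 RMG1 array only. CPNE8 was at 10.67 and 11.92 with siCPNE8 #A and #B, against 13.76 with siControl, and BHLHE41 was at 12.99 and 13.63 with siBHLHE41 #A and #B, against 14.51 with siControl. Both targeted genes were thus lower with either siRNA, and #A left less of its target than #B in both lines. Of 5 measured markers of clear cell carcinoma, 3 (ANXA4, VCAN and TFPI2) were higher in RMG1 than in OVCAR3 by limma and 0 were lower, but 4 lay above background in OVCAR3 too. Of 7 measured markers of serous carcinoma, 4 (WT1, MUC16, EMX2 and MEIS1) were lower in RMG1 and 1, PAX8, was higher; 2 lay above background in RMG1 and 5 in OVCAR3. The markers thus only in part set the lines apart by carcinoma type. None of 8 measured immune markers and none of 8 measured stromal and endothelial markers lay above background in any array.

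In OVCAR3 cells the mitotic genes lay below siControl with siBHLHE41 #A but not with siBHLHE41 #B. With #A, 36 of the 40 were below siControl, with a median log2 ratio of -0.28 (quartiles -0.47 and -0.09) and a range of -0.93 to 0.30. With #B, 12 of the 40 were below siControl, with a median of 0.06 (quartiles -0.04 and 0.21) and a range of -0.61 to 0.69. Over all 21448 transcript probes 50.6% were below siControl with #A and 50.6% with #B, and both medians were -0.01. Among the 8945 probes above background in an OVCAR3 array the shares were 50% with #A and 47.4% with #B. The 2 siRNAs could also be set against each other without the control array: 37 of the 40 were lower with #A than with #B, against 49.1% of all transcript probes and 51.8% of those above background, and the median difference was -0.34. The exceptions were CDK1, NUF2 and ECT2. The step line of the members in the plot of cumulative shares is therefore shifted to the left of the other probes with #A. With #B its lower part lies to the right of them. The lower quartile with #B was -0.04, against -0.22 for the probes above background, and the upper quartile 0.21, against 0.27.

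**Figure D1:**
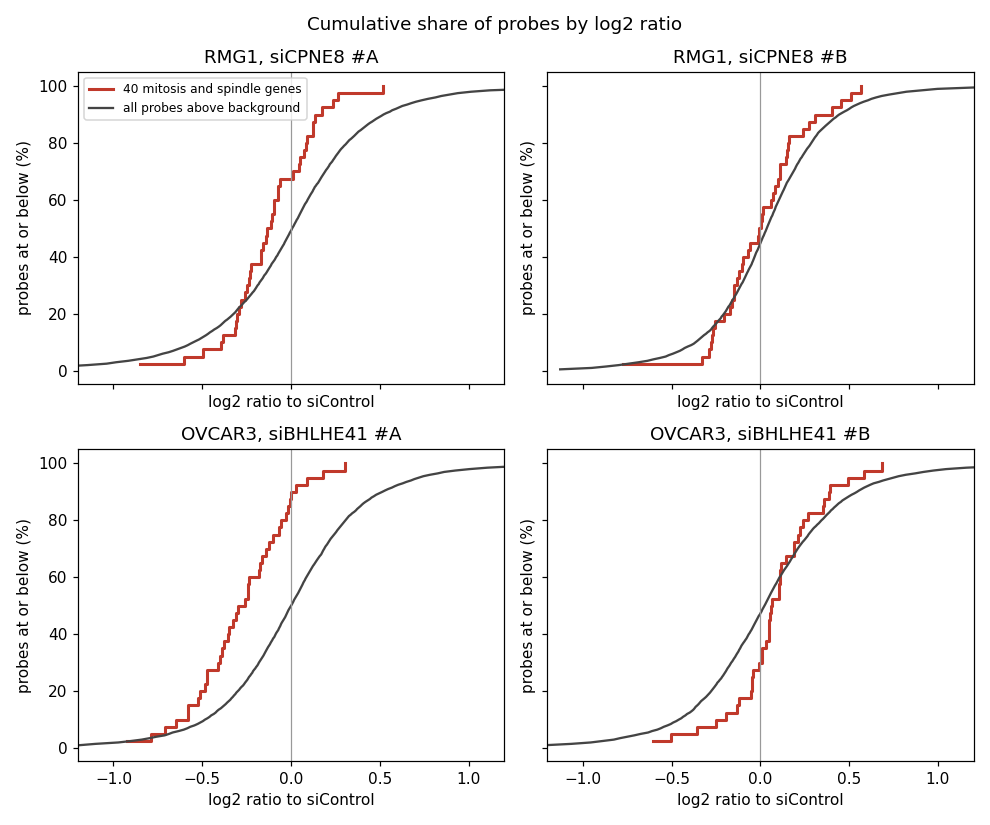
Cumulative share of probes (%) against the log2 ratio to the siControl array, 1 panel an siRNA; the red steps are the 40 mitosis and spindle genes and the grey line is every transcript probe above background in an array of that line. With siBHLHE41 #A the red steps lie left of the grey line (36 of 40 members below 0), whereas with siBHLHE41 #B 12 of 40 members lie below 0.

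The shift with siBHLHE41 #A ran through every functional block. All 8 mitotic entry kinases and cyclins, all 5 checkpoint genes, all 4 anaphase regulators and all 4 passenger complex genes lay below siControl with it, as did 5 of 7 kinetochore genes, 4 of 5 spindle motors and microtubule proteins, 4 of 5 midzone and cytokinesis genes and both chromosome proteins. Some of these were all but level with siControl, such as BUB3 (-0.0009), CENPE (-0.01) and AURKB (-0.02). The block medians with #A ran between -0.51, for midzone and cytokinesis, and -0.13, for the passenger complex. With #B the block medians ran between -0.07, for the entry kinases and cyclins, and 0.20, for the passenger complex. The 4 members above siControl with #A were ECT2 (0.30), KIF2C (0.18), NUF2 (0.09) and SPC25 (0.03). The array with siBHLHE41 #A had the highest background of the 6 arrays (8.47) and the lowest share of transcript probes above it (37.2%), and 14 of 17 housekeeping genes also lay below siControl on it, with a median log2 ratio of -0.19, against 10 of 17 and -0.05 with #B. Their part in the shift of the mitotic genes was not tested.

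Over both siRNAs the members shared no direction. The sign of the ratio differed between #A and #B for 26 members, 11 were below siControl with both siRNAs (34.7% of all transcript probes) and 3 were above it with both (33.4%). A gene was counted as lower when its ratio was under 0.66-fold with both siRNAs and as higher when it was over 1.5-fold with both, the study's own thresholds for its arrays. By this count 1 member, MAD2L1, was lower, against 2.13% of all transcript probes, and 0 were higher, against 3.09%. With limma, fitted over all 6 arrays, 0 members passed an adjusted p of 0.05 in OVCAR3, and 0% of all transcript probes did, BHLHE41 itself included; at an unadjusted p under 0.05, MAD2L1 alone among the members was lower and 0 members were higher, beside 465 and 634 of all transcript probes. This fit, with 2 residual degrees of freedom, was tried on simulated data for the siCPNE8 comparison. It recovered 0% of changes of 1 log2 unit, the smallest size simulated and larger than any ratio of the members. A count of 0 therefore does not show that the members did not change.

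MAD2L1 (chr4:120055623-120066848, GRCh38.p14) encodes MAD2, which the checkpoint turns into the inhibitor that holds back anaphase until every kinetochore is attached. It was at 10.21 with siBHLHE41 #A and 10.39 with #B, against 11.00 with siControl, which averaged to a log2 ratio of -0.70 ± 0.13 (SD over the 2 siRNAs; 0.578-fold and 0.656-fold; limma standard error 0.27, adjusted p = 0.948). Both siRNA arrays were below the control array, and #B was only just under 0.66-fold. CCNA2, cyclin A2, which drives CDK2 in S phase and CDK1 at mitotic entry, was at 13.68 and 13.89 with #A and #B, against 14.39 with siControl, a mean of -0.61 ± 0.14 (SD, n = 2 siRNAs; limma adjusted p = 0.948). It stood below the control with both siRNAs and under 0.66-fold with #A alone. KIF23, the motor subunit of centralspindlin at the midzone, was at 13.09 and 13.24 with #A and #B, against 13.60 with siControl, a mean of -0.44 ± 0.11 (SD, n = 2 siRNAs; limma adjusted p = 0.974). For these 3 genes the siRNAs were closer to each other than either was to the control.

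NEK2, a kinase that separates the centrosomes, was at 9.83 with #A and 10.75 with #B, against 10.75 with siControl, so that its average log2 ratio of -0.47 ± 0.65 (SD, n = 2 siRNAs) came from #A alone. NDC80, the subunit of the outer kinetochore that binds microtubules, was at 11.63 with #A and 12.50 with #B, against 12.28 with siControl. PRC1, which bundles the antiparallel microtubules of the midzone, was at 11.48 with #A and 12.39 with #B, against 11.81 with siControl. In each of them the #A array was the lowest of the 3, and the #B array was level with the control in NEK2 and above it in NDC80 and PRC1. CDC25C, the phosphatase that activates CDK1, was at 8.62 with #A and 9.56 with #B, against 8.88 with siControl, and was the only member over 1.5-fold with #B. KIF2C, a kinesin that takes microtubules apart, had the highest average ratio in this line, 0.34 ± 0.22 (SD, n = 2 siRNAs), with 10.92 and 11.24 with #A and #B, against 10.74 with siControl. SPC25, another subunit of the NDC80 complex, was at 9.10 and 9.46 with #A and #B, against 9.07 with siControl, and ECT2, the exchange factor that activates RhoA for cytokinesis, was at 12.79 and 12.54, against 12.49 with siControl. KIF2C, SPC25 and ECT2 were the members above siControl with both siRNAs.

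**Figure D2:**
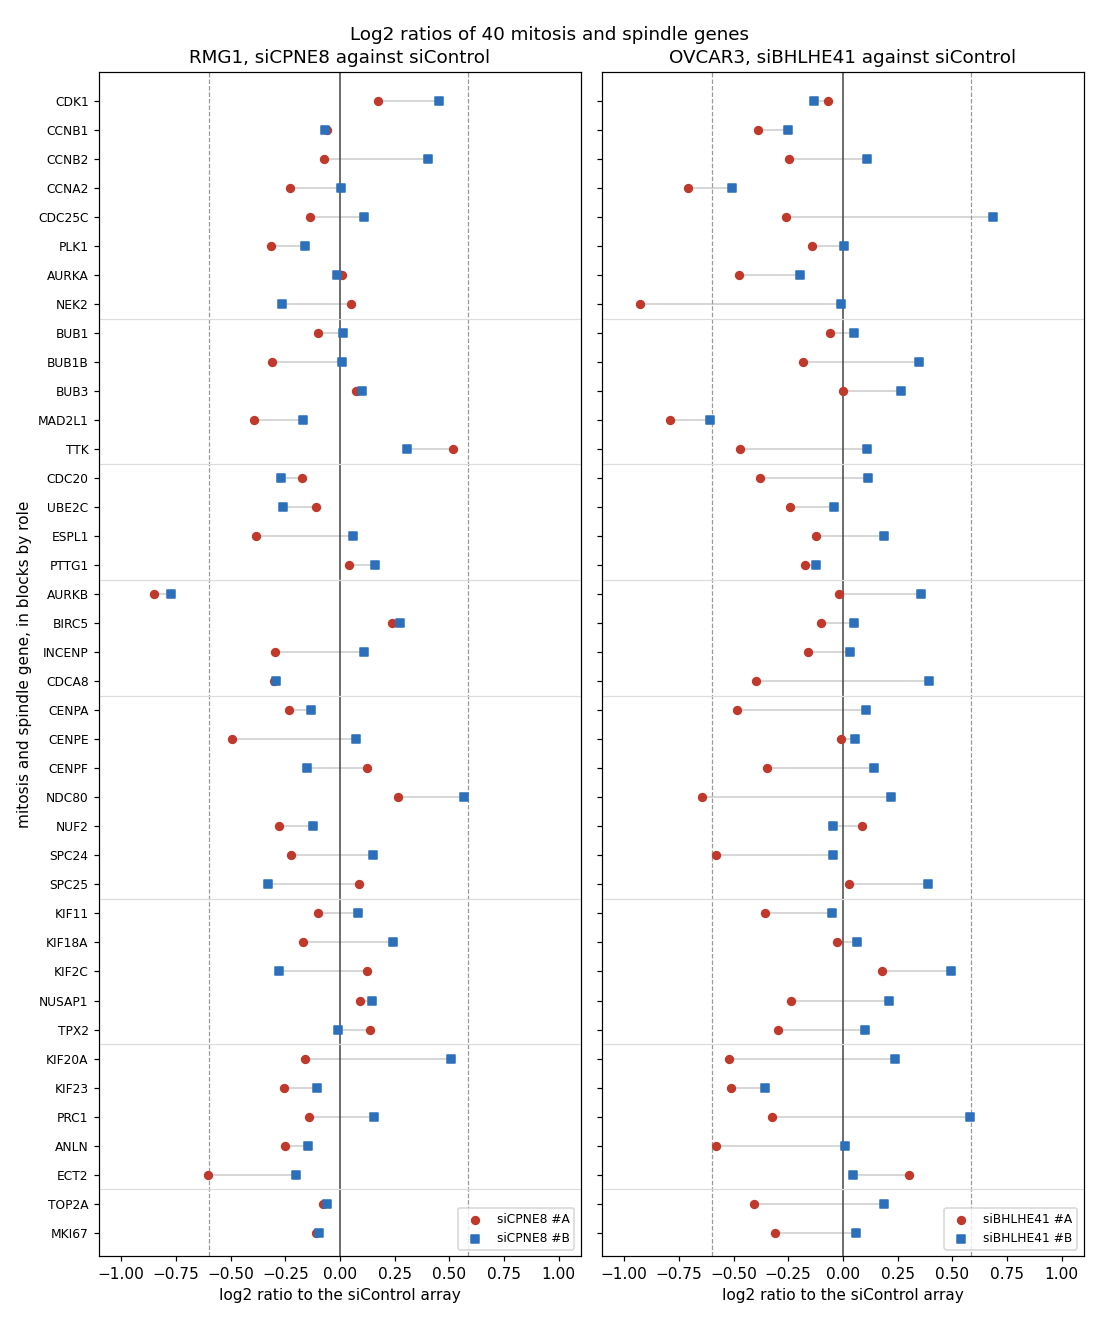
Log2 ratio of each of the 40 genes to the siControl array of its line, in blocks by role, with RMG1 (siCPNE8) on the left and OVCAR3 (siBHLHE41) on the right; red circles are siRNA #A, blue squares siRNA #B, the grey bars join them, and the dashed lines mark 0.66-fold and 1.5-fold. In OVCAR3 the red circle lies left of the blue square for 37 of 40 genes; AURKB in RMG1 and MAD2L1 in OVCAR3 have both points past the lower dashed line.

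In RMG1 cells the mitotic genes stayed near siControl. With siCPNE8 #A, 27 of the 40 were below siControl, with a median log2 ratio of -0.12 (quartiles -0.26 and 0.06) and a range of -0.85 to 0.52, against 49.9% of all transcript probes and 49.2% of the 9156 above background in an RMG1 array. With #B, 20 of the 40 were below siControl, with a median of -0.00 (quartiles -0.15 and 0.15) and a range of -0.77 to 0.57, against 51% of all transcript probes and 44.8% of those above background. In a direct comparison, 30 of the 40 were lower with #A than with #B, against 48.6% of all transcript probes and 53.8% of those above background, and the median difference was -0.12. All 5 midzone and cytokinesis genes and both chromosome proteins were below siControl with #A, and 3 of those 5 and both chromosome proteins were so with #B. Of the 5 spindle motors and microtubule proteins, 2 were below siControl with #A and 2 with #B, and NUSAP1 alone was above it with both.

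The sign of the ratio differed between the siRNAs for 19 members, 14 were below siControl with both (33.5% of all transcript probes) and 7 were above it with both (32.6%). Under 0.66-fold with both siRNAs was 1 member, AURKB, against 2.69% of all transcript probes, and 0 were over 1.5-fold with both, against 2.56%. With limma, 0 members passed an adjusted p of 0.05 in RMG1, and 0% of all transcript probes did, CPNE8 itself included; at an unadjusted p under 0.05, AURKB alone among the members was lower and 0 members were higher, beside 611 and 570 of all transcript probes.

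AURKB (chr17:8204731-8210575, GRCh38.p14) encodes Aurora B, the kinase of the chromosomal passenger complex, which corrects faulty attachments at the centromere. It was at 10.12 with siCPNE8 #A and 10.19 with #B, against 10.97 with siControl, which averaged to a log2 ratio of -0.81 ± 0.05 (SD over the 2 siRNAs; 0.554-fold and 0.584-fold; limma standard error 0.28, adjusted p = 0.894). The siRNA arrays lay close together and well below the control array. Its partners in the complex did not share one direction. CDCA8 (Borealin), which places the complex at the centromere, was at 11.05 and 11.06 with #A and #B, against 11.35 with siControl, a mean of -0.30 ± 0.01 (SD, n = 2 siRNAs). BIRC5 (survivin) was at 10.74 and 10.78 with #A and #B, against 10.51 with siControl, a mean of 0.25 ± 0.03 (SD, n = 2 siRNAs). INCENP, the scaffold, was at 10.67 and 11.08 with #A and #B, against 10.97 with siControl, so the siRNA arrays lay on either side of the control. In OVCAR3, AURKB was at 9.37 and 9.75 with siBHLHE41 #A and #B, against 9.39 with siControl.

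Of the other members furthest below siControl in RMG1, ECT2 was at 13.50 and 13.90 with #A and #B, against 14.10 with siControl, an average log2 ratio of -0.40 ± 0.28 (SD, n = 2 siRNAs), and was under 0.66-fold with #A alone (0.659-fold). MAD2L1 was at 11.88 and 12.10, against 12.27 with siControl, a mean of -0.28 ± 0.16 (SD, n = 2 siRNAs). Both genes were lowest with #A and highest in the control. On the other side, NDC80 was at 11.57 and 11.88, against 11.31 with siControl, a mean of 0.42 ± 0.21 (SD, n = 2 siRNAs). TTK, the kinase MPS1 that starts checkpoint signaling, was at 13.25 and 13.05, against 12.74 with siControl, a mean of 0.41 ± 0.15 (SD, n = 2 siRNAs). CDK1, the kinase that drives entry into mitosis, was at 11.52 and 11.80, against 11.35 with siControl, a mean of 0.31 ± 0.20 (SD, n = 2 siRNAs). These 3 genes were above the control with both siRNAs, and limma gave them adjusted p between 0.985 and 0.988. MKI67, the gene of the proliferation antigen Ki-67, and TOP2A, the topoisomerase of mitotic chromosomes, had ratios between -0.11 and -0.06 with either siRNA, and CCNB1, cyclin B1, had -0.06 and -0.07. CDC25C, near background in RMG1, was at 7.63 and 7.87, against 7.76 with siControl.

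**Figure D3:**
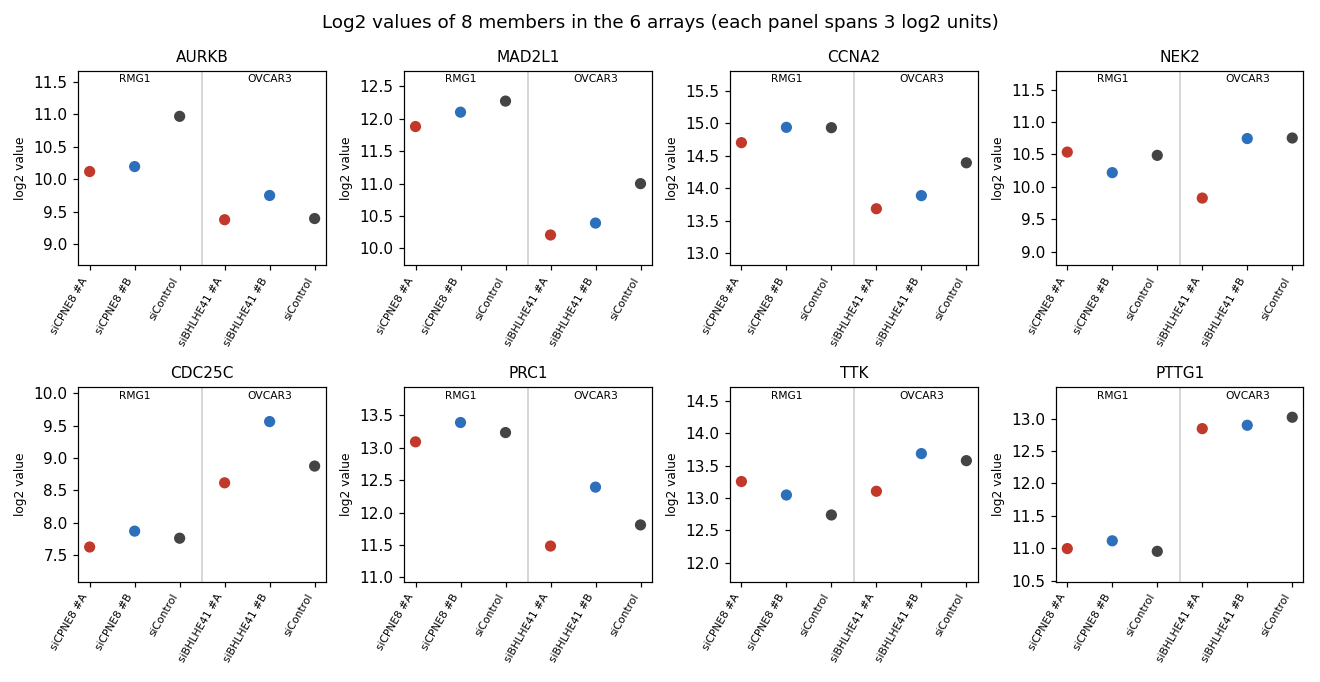
Deposited log2 values of 8 members in each of the 6 arrays, RMG1 left and OVCAR3 right of the vertical line, with siRNA #A in red, siRNA #B in blue and siControl in grey; every panel spans 3 log2 units around its own centre. AURKB is lower with both siCPNE8 siRNAs (10.12 and 10.19, against 10.97), MAD2L1 with both siBHLHE41 siRNAs (10.21 and 10.39, against 11.00), and NEK2 with siBHLHE41 #A alone.

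With 36 of 40 members on one side of siControl with siBHLHE41 #A, their promoters were read for the elements through which mitotic genes are known to be controlled. The cell cycle genes homology region, TTTGAA or less often TTCGAA, is bound by MuvB, and the CCAAT box by NF-Y. RefSeq promoters of 300 bases, 250 before and 50 after the annotated start on GRCh38.p14, matched 34 of the 40 members by symbol, with 41 windows; AURKA, TPX2, TTK, BIRC5, UBE2C and BUB3 had no entry in the table used. On either strand, TTTGAA was in 27 of the 41 windows (65.9%), against 12.4% of the 20090 windows of genes with a named probe and 15.2% of all 35116 windows. TTCGAA was in 2 of 41 (4.88%), against 1.56% and 1.45%. CCAAT was in 32 of 41 (78%), against 34.7% and 34.6%. Both TTTGAA and CCAAT were in 22 of 41 (53.7%), against 4.94% and 5.9%. In CDCA8 and MKI67 the last base of a TTTGAA match was also the first base of a CCAAT match. Of the 36 TTTGAA matches in the members, 21 began within 75 bases before the start, and the stretch from 75 to 50 bases before it held a CCAAT in 20 of the 41 windows, more than any other bin of 25 bases.

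**Figure D4:**
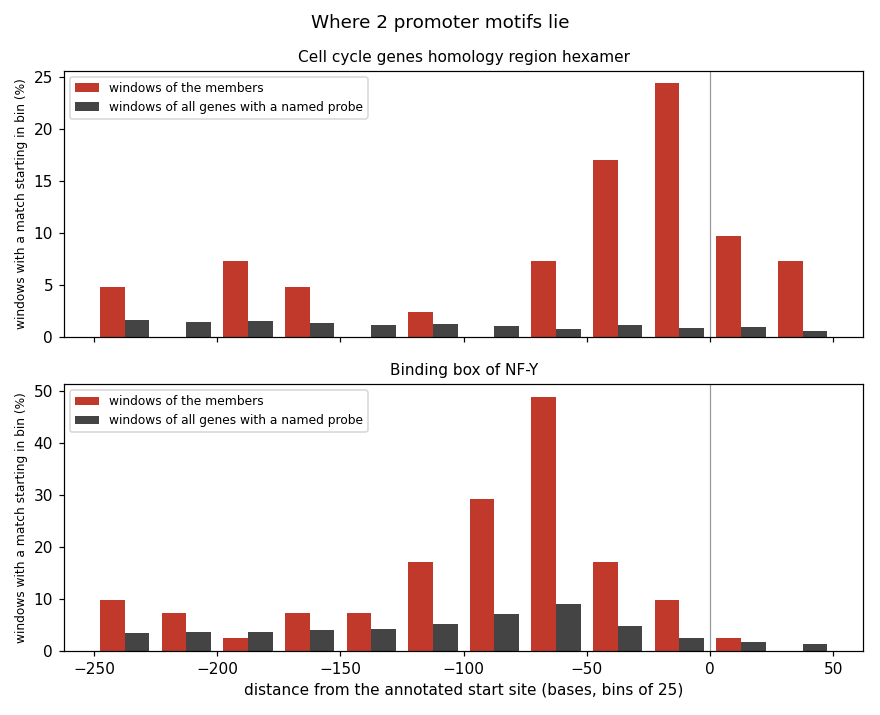
Share of promoter windows (%) with a match that starts in each bin of 25 bases, by distance from the annotated start, for the 41 windows of the members (red) and the 20090 windows of all genes with a named probe (grey); the upper panel is the cell cycle genes homology region hexamer, the lower the box bound by NF-Y. Among the members' windows the hexamer is most frequent in the last 50 bases before the start and the box between 100 and 50 bases before it.

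The 100 bases before the start of 7 members show how the elements lie, printed from 5′ to 3′ in the direction of transcription, with TTTGAA and CCAAT (or its complement ATTGG) in capitals. CCNB2, CDC20, PLK1, PRC1 and CENPA are shown for their TTTGAA.
CCNB2 (chr15:59105046-59105145, plus strand): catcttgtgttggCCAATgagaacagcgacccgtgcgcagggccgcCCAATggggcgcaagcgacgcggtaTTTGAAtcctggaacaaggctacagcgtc
CDC20 (chr1:43358881-43358980, plus strand): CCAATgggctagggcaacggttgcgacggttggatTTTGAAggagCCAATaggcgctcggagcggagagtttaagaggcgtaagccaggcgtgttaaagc
PLK1 (chr16:23678789-23678888, plus strand): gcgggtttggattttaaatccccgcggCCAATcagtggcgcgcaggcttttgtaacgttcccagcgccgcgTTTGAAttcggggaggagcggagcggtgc
PRC1 (chr15:90994536-90994635, minus strand): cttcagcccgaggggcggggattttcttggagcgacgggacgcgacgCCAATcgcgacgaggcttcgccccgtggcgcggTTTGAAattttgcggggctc
CENPA (chr2:26785956-26786055, plus strand): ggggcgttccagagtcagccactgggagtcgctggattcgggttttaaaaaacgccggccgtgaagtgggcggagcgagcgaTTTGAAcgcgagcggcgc
The hexamer begins 29 bases before the start in CCNB2 and PLK1, 20 in PRC1 and 18 in CENPA. In these genes no CCAAT stands between it and the start, and CENPA has none in this stretch, while in CDC20 the hexamer begins 65 bases before the start, between a pair of CCAAT boxes. CCNA2 and NEK2, which were among the members furthest below siControl with siBHLHE41 #A, hold CCAAT and no TTTGAA here.
CCNA2 (chr4:121823884-121823983, minus strand): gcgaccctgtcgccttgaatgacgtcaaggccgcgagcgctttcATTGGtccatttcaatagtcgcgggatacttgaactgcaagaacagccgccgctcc
NEK2 (chr1:211675622-211675721, minus strand): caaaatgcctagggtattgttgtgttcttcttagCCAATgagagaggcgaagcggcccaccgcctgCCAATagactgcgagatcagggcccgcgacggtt
A match of letters is a description and not a binding site.

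The ratios did not separate by TTTGAA. The split was by these letters alone: the members without TTTGAA include BUB1, which holds TTCGAA, and other forms of the element were not searched for. It therefore does not show whether the ratios depend on the element. With siBHLHE41 #A the median log2 ratio was -0.28 for the 24 members with TTTGAA in a window and -0.28 for the 10 without it, and with #B the medians were 0.11 and 0.02. In RMG1 the medians were -0.17 and -0.13 with siCPNE8 #A and -0.08 and 0.01 with #B.

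Between the lines, single mitotic genes differed in either direction, and the median of the set was close to 0. The median difference over the members, RMG1 minus OVCAR3, was 0.02, and that over all transcript probes was 0.03. With limma on 3 arrays a line, siRNA and siControl arrays together, 12 members were higher in RMG1 and 6 were lower at an adjusted p under 0.05. Over all transcript probes 17.8% were higher and 19.2% were lower, and among the 10007 above background in an array 28.7% were higher and 30.2% were lower, so that the members' 12 of 40 was close to the share of expressed probes and their 6 of 40 was below it. The spread in this fit holds the siRNA effects, and the lines differ in more than their carcinoma type, the culture medium included. With the siControl arrays alone, 3 members were higher and 1 was lower.

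PTTG1, securin, the inhibitor of separase, showed the largest difference among the members. It was at 11.00, 11.12 and 10.95 in RMG1 with siCPNE8 #A, #B and siControl, against 12.85, 12.90 and 13.02 in OVCAR3 with siBHLHE41 #A, #B and siControl, a difference of -1.90 (limma standard error 0.16, adjusted p = 1.86e-05). The SD within a line was 0.08 in RMG1 and 0.09 in OVCAR3, and the lines did not overlap. Its target ESPL1, separase, went the other way, with a difference of 0.62. CDC20, which brings securin to the anaphase-promoting complex, was at 12.19, 12.09 and 12.36 in RMG1, against 12.71, 13.21 and 13.09 in OVCAR3, a difference of -0.79 (limma adjusted p = 0.00894). BUB1B (BUBR1), which holds CDC20 in check, was at 11.36, 11.68 and 11.67 in RMG1, against 12.24, 12.77 and 12.42 in OVCAR3, a difference of -0.90 (limma adjusted p = 0.00553). MAD2L1, whose product restrains CDC20 together with BUBR1, was at 11.88, 12.10 and 12.27 in RMG1, against 10.21, 10.39 and 11.00 in OVCAR3, a difference of 1.55 (limma adjusted p = 0.000671). Within the checkpoint and anaphase genes, RMG1 was thus higher for MAD2L1, BUB1 (0.98) and ESPL1, and lower for BUB1B, CDC20 and PTTG1.

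Of the entry genes, CDC25C was at 7.63, 7.87 and 7.76 in RMG1, against 8.62, 9.56 and 8.88 in OVCAR3, a difference of -1.26 (limma adjusted p = 0.00303), and in RMG1 it was above background in 1 array, so that the size of this difference is uncertain. CCNB2, cyclin B2, was at 11.53, 12.01 and 11.60 in RMG1, against 12.52, 12.87 and 12.76 in OVCAR3, a 0.5-fold level in RMG1 relative to OVCAR3 (limma adjusted p = 0.00289). CDK1 was lower in RMG1 as well (-0.58), CCNA2 was higher (0.87), and CCNB1 had a difference of 0.04 with a standard error of 0.17. Among the midzone genes, PRC1 was at 13.09, 13.39 and 13.23 in RMG1, against 11.48, 12.39 and 11.81 in OVCAR3, a difference of 1.34 (limma adjusted p = 0.00186), and ECT2 was at 13.50, 13.90 and 14.10 in RMG1, against 12.79, 12.54 and 12.49 in OVCAR3, a difference of 1.23 (limma adjusted p = 0.00114). In both genes every RMG1 array lay above every OVCAR3 array. TOP2A was at 14.95, 14.96 and 15.02 in RMG1, against 13.52, 14.12 and 13.93 in OVCAR3, a difference of 1.12 (limma adjusted p = 0.00145). CENPA, the histone H3 variant of centromeres, was at 10.62, 10.72 and 10.86 in RMG1, against 9.33, 9.92 and 9.81 in OVCAR3, a difference of 1.04 (limma adjusted p = 0.00265). The lines did not overlap for these 2 genes either. AURKB (0.92), CDCA8 (0.83), CENPE (0.74), a kinesin of the kinetochore, and KIF11 (0.71), the kinesin that pushes the spindle poles apart, were also higher in RMG1. The other 22 members, MKI67 (-0.23) and PLK1 (0.11) among them, did not pass the test.

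**Figure D5:**
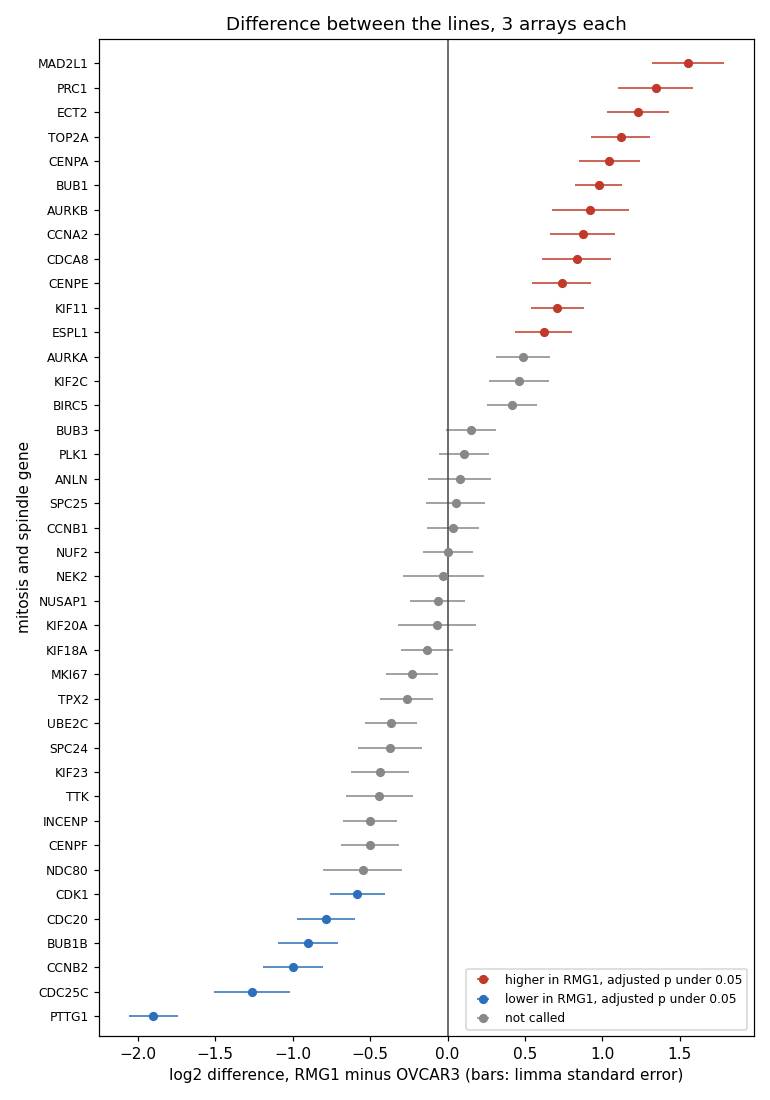
Difference between the lines in log2 value, RMG1 minus OVCAR3, for each of the 40 genes, with limma's standard error as bars (3 arrays a line); red marks genes higher and blue genes lower in RMG1 at an adjusted p under 0.05. The 12 red and 6 blue genes lie between MAD2L1 (1.55) and PTTG1 (-1.90), on either side of 22 genes that were not called.

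Other genes of the same processes were read from 6 further lists, of cohesin and condensin, kinetochore, spindle, anaphase-promoting complex, mitotic entry and cytokinesis genes, with 110 of 121 genes measured. With siBHLHE41 #A 82 of the 110 were below siControl, with a median log2 ratio of -0.21, and with #B 58 were, with a median of -0.03. With siCPNE8 #A 66 were below, with a median of -0.08, and with #B 52 were, with a median of 0.00. Of all transcript probes, 50.6% were below siControl with either siBHLHE41 siRNA, and 49.9% and 51% with siCPNE8 #A and #B. Among probes above background in an array of the line, the shares were 50% and 47.4% with siBHLHE41 #A and #B, and 49.2% and 44.8% with siCPNE8 #A and #B. None passed limma's test in either line. HMMR, which binds spindle microtubules, was above siControl in OVCAR3, at 10.57 and 10.66 with siBHLHE41 #A and #B, against 9.52 with siControl, and WEE1, the kinase that holds CDK1 inactive, was at 12.95 and 12.75, against 12.06 with siControl. Both were over 1.5-fold with both siRNAs, 2 of the 110, against 3.09% of all transcript probes. FZR1, the CDH1 activator of the anaphase-promoting complex, was over 1.5-fold in RMG1, at 9.51 and 9.76 with siCPNE8 #A and #B, against 8.62 with siControl. It alone of the 110 was past that fold with both siRNAs in RMG1, against 2.56% of all transcript probes. CENPT was under 0.66-fold with both siRNAs in RMG1 but lay below background in every array, and no ratio is given for it. Between the lines, 41 of the 110 were higher in RMG1 and 16 were lower. The shares were 17.8% and 19.2% of all transcript probes, and 28.7% and 30.2% of those above background in an array.

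Among the transcription factors of the mitotic program, FOXM1 was at 11.18 and 11.70 with siCPNE8 #A and #B, against 11.77 with siControl, and at 11.82 and 12.07 with siBHLHE41 #A and #B, against 12.02 with siControl. MYBL2 was at 11.23 and 11.87 with siCPNE8 #A and #B, against 11.75 with siControl, and at 12.36 and 12.60 with siBHLHE41 #A and #B, against 12.18 with siControl. Both factors were thus lowest with siCPNE8 #A in RMG1, whereas in OVCAR3, MYBL2 was above siControl with both siRNAs. E2F5, a repressor E2F, was the factor of this list of 23 under 0.66-fold with both siRNAs, at 10.02 and 10.31 with siCPNE8 #A and #B, against 10.98 with siControl. Of all transcript probes, 2.69% were so in RMG1. Among 47 measured genes of DNA replication, which belong to the earlier wave of the cycle, 32 were below siControl with siBHLHE41 #A (median -0.18) and 29 with #B (median -0.08), and 33 with siCPNE8 #A (median -0.10) and 10 with #B (median 0.13). The shares of all transcript probes were 50.6% with either siBHLHE41 siRNA, and 49.9% and 51% with siCPNE8 #A and #B. UHRF1, which guides the copying of DNA methylation, was at 10.60 and 10.89 with siCPNE8 #A and #B, against 9.92 with siControl. It was the 1 gene of the 47 over 1.5-fold with both, against 2.56% of all transcript probes. Between the lines, 28 of these 47 were higher in RMG1 and 3 were lower, with a median difference of 0.82, whereas the median difference of the mitotic members was 0.02. Of all transcript probes, 17.8% were higher and 19.2% lower, and of those above background in an array 28.7% and 30.2%. Of 9 measured inhibitors of proliferation, CCNG2 alone was over 1.5-fold with both siRNAs in OVCAR3, at 13.77 and 13.81 with siBHLHE41 #A and #B, against 13.18 with siControl. The share of all transcript probes over that fold was 3.09%. Of 17 housekeeping genes, POLR2A alone, the catalytic subunit of RNA polymerase II, was under 0.66-fold with both in OVCAR3, at 12.71 and 12.75, against 13.36 with siControl. The share of all transcript probes under that fold was 2.13%. Of 7 measured serous markers, 2 were over 1.5-fold with both siRNAs in OVCAR3, against 3.09% of all transcript probes. They were MEIS1, at 10.95 and 11.35 with siBHLHE41 #A and #B, against 10.16 with siControl, and EMX2, at 12.21 and 12.24, against 11.44 with siControl. The 7 did not all go this way: 5 were above siControl with both siRNAs (33.4% of all transcript probes), 1 was below it with both (34.7%), and the sign differed for 1.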

How the data were processed

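RMG1 and OVCAR3 cells were transfected with siRNAs, RNA was extracted with ISOGEN, and 1 Affymetrix Clariom S array was run per sample, 6 in all. The deposited table holds log2 values of 24351 probes, credited by the submitters' processing notes to RMA in Affymetrix Expression Console, versions not given in the sources used here. RMA, as run by the authors, subtracts background, brings the arrays to one distribution and gives 1 log2 value a probe set. Gene symbols came from the array's platform annotation; 2903 control probes were left out, and 3739 transcript probes had no symbol here.

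Knockdowns were tested with limma 3.58.1 (moderated by eBayes) in a joint model of the 4 groups (2 residual degrees of freedom) and the lines as 3 against 3 arrays; p-values were adjusted by Benjamini-Hochberg across 21448 transcript probes. Both models were first tested on simulated data. The fold count (over 1.5 or under 0.66 with both siRNAs) has no test. Precision is limited by the number of arrays. The 40 members, the 15 gene lists and the tests were chosen with earlier results of these data known. Values are given for the members past the fold with both siRNAs, the 4 with the largest mean log2 ratio in each direction and line, the 5 with the largest line difference in each direction among those called, and members of other lists past the fold and above background; CPNE8, BHLHE41, FOXM1, MYBL2, INCENP, PRC1, the carcinoma markers and other members named in passing were added. Promoters were taken from RefSeq (GRCh38.p14). Alternatives were other normalizations, another fold, a variance trend, control probes kept, dim probes left out, and each array left out; that with members above background in all 6 arrays was chosen after seeing the data.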

Additional observations from a re-analysis of the deposited data

How the results depend on the processing

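Quantile normalization, centring on bright probes and cyclic loess kept the counts of members below siControl within 1.5 times: with siBHLHE41 #A 33 to 36 of 40, with siBHLHE41 #B 12 throughout. Their effect on the median of all probes was under 0.03. At 2-fold and 0.5-fold, 0 members were lower with both siRNAs in RMG1 and 0 in OVCAR3; with cyclic loess 0 were lower in OVCAR3, as MAD2L1 no longer passed with #B. Leaving out 1 siRNA, the members past the lower fold with the remaining siRNA numbered 1 to 2 in RMG1 and 1 to 4 in OVCAR3, those past the upper fold 0 to 1 in OVCAR3, and those below siControl 20 to 27 in RMG1 and 12 to 36 in OVCAR3. The counts of 0 by limma for the knockdowns say nothing about stability, since the fit could hardly call changes of the members' size. Between the lines, the siControl arrays alone gave 3 members higher and 1 lower in RMG1, where PRC1, TOP2A, CENPA, CDC25C, CCNB2, BUB1B and CDC20 kept their direction and missed the threshold; the spread then comes from the siRNA pairs and each line has 1 array. CDC25C in OVCAR3, not past the fold with both siRNAs, changed sign with the siRNA kept, at -0.26 with #A alone and 0.69 with #B alone. Signs were followed for the named members' mean ratios and line differences, and no other of these changed sign. Single ratios near 0 did cross it under other normalizations. With siCPNE8 #B, 20 members were below siControl as reported and 23 with cyclic loess. No paired analysis was possible because the siRNAs of the lines target different genes and siControl has 1 array a line.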
